A study of Mus musculus with 24 samples.

Results

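Tumor cells purified from CT26 tumors were compared between a Sun1 knockout line and 2 control lines, in 6 of the 24 libraries of the study. CT26 cells come from a colon carcinoma of a BALB/c mouse and grow as tumors in that strain. The libraries were taken by their titles: 2 of purified Sun1 knockout cells, 2 of purified control line 1 and 2 of purified control line 2, both controls being labelled wild type. Each line had been injected under the skin of the right flank of BALB/c mice, and tumors were taken after 14 days, dispersed and passed through a kit for the isolation of mouse tumor cells. All 3 lines were also sequenced from culture in medium with serum, with 1 library per line, and these libraries are shown beside the purified ones. Whole tumors of the knockout (7 libraries) and of control line 1 (8 libraries) are used as a further setting. The labels name 1 knockout line, so effects of Sun1 loss and of other features of that single line cannot be told apart. Nor do they say whether the libraries of a line came from separate mice, so the p-values reflect the spread among libraries, which may be technical.

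SUN1 spans the inner nuclear membrane and, with nesprins of the outer membrane, forms the LINC complex, which couples the lamina to the cytoskeleton. SUN2 is its close relative with a partly overlapping role. Type I interferons act through a complex that includes STAT2 and IRF9 and binds a repeated GAAA element in the promoters of interferon-stimulated genes, many of which encode antiviral proteins. Interferon gamma raises guanylate-binding proteins, immunity-related GTPases and antigen presentation.

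The 6 purified libraries held 17068356 to 22593612 expected counts. Pearson's r of log2 CPM (counts scaled to library size) across genes, which are not independent replicates, was 0.984 to 0.988 within a line and 0.958 to 0.971 between lines. Knockout replicate 2 stood apart in muscle and blood genes. The summed level of 15 skeletal muscle markers was 51.7 TPM (a level scaled to transcript length and library size) in that library, 9.8 TPM in knockout replicate 1 and 3.78 to 8.13 TPM in the controls. The muscle myosin Myh4 was at 16.1 CPM in knockout replicate 2, 1.01 CPM in replicate 1 and at most 0.369 CPM in the controls. The epithelial defining genes Epcam and Krt19 were at 0 in all 6 libraries, while the colon keratin Krt20 was at 62.8 to 152 CPM and the mesenchymal filament gene Vim was highly expressed. Lymphocyte genes were close to 0, with Cd3e at most 0.182 CPM. Among 17 leukocyte markers tested, 1 was called lower in the knockout (Lyz2; 5.88%, beside 4.25% of all tested genes) and 0 higher. Of the 17, 13 lay below both control lines (76.5%, beside 34.9% of all tested genes), and the median log2 difference was -1.23. The summed leukocyte level was 101 to 102 TPM in the knockout, 118 to 135 TPM in control line 1 and 80.4 to 103 TPM in control line 2, with most of it from Cd14. Its part in the results was not tested, and in these bulk libraries fewer cells of a type and less RNA per cell cannot be told apart.

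Sun1 itself, on chromosome 5 at 139200564 to 139249839, was the first gene examined. Its level was 50.9 and 55.5 CPM in the purified knockout, 174 and 214 CPM in control line 1, and 167 and 165 CPM in control line 2. The knockout values lay below all 4 control values, and the difference between the control lines did not pass the test (log2 difference -0.22, SE 0.11, adjusted p = 0.21, edgeR quasi-likelihood test). The log2 fold change was -1.86 against line 1 and -1.64 against line 2 (larger adjusted p = 1.23e-06). In culture the knockout was at 33.7 CPM beside 122 and 110 CPM. Transcript of the targeted gene was thus reduced and still counted, and these counts do not measure protein.

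Of the 12 tested genes of the SUN, nesprin and torsin list, Sun1 and Sun2 fell and Tor1aip1 and Tor1aip2 rose against both control lines. That is 16.7% in each direction, beside 4.25% lower and 3.77% higher among all tested genes. Sun2 was at 102 and 93.4 CPM in the knockout, 161 and 171 CPM in line 1, and 178 and 176 CPM in line 2. All knockout values of Sun2 lay below all control values, with a mean log2 fold change of -0.80 (SE 0.09, larger adjusted p = 0.000236). Sun2 lies on chromosome 15 at 79724068 to 79742536. In the window from 75 to 100 Mb there, 50 of 281 tested genes were called lower (17.8%, beside 4.25% of all tested genes). The part of that stretch in the Sun2 result was not tested. Sun2 was also lowest in the cultured knockout (75.5 CPM, beside 104 and 113 CPM). Tor1aip1 and Tor1aip2 encode LAP1 and LULL1, membrane partners that activate torsins. Their mean log2 fold changes were 0.57 (SE 0.08) and 0.36 (SE 0.08), and both calls were lost when either knockout library or either library of control line 1 was left out. The nesprin genes did not pass the test: Syne1 differed by 0.11 and 0.31 from lines 1 and 2 on the log2 scale, Syne2 by -0.39 and -0.08, and Syne3 by -0.42 and -0.37. Of 12 lamin and inner nuclear membrane genes, 0 were called, and 0 by an unadjusted p under 0.05 or by DESeq2. Lmna, which encodes lamins A and C, differed by 0.16 and -0.09, and Tmpo by -0.16 and -0.14.

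A gene was called when it differed from each control line at an adjusted p under 0.05 and in the same direction. This held for 1000 of 12476 genes tested (8.02%), 470 higher in the knockout (3.77%) and 530 lower (4.25%). At least 2-fold from both lines were 117 higher and 123 lower genes. In all 470 higher and all 530 lower genes the 2 knockout values lay outside the range of the 4 control values. Of all 12476 tested genes, 2053 lay wholly above and 2254 wholly below the controls. A lack of overlap thus adds nothing to a call. Each control alone gave more calls: 1038 higher (8.32%) and 1262 lower (10.1%) against line 1, and 1369 higher (11%) and 1307 lower (10.5%) against line 2. A further 39 genes were called against both lines in opposite directions. The median log2 fold change over all genes was 0.0013 against line 1 and -0.0094 against line 2. The plot of one fold change against the other shows both the called genes on the diagonal and the many genes that moved against a single line. Counts depended on single libraries: 260 higher and 302 lower without knockout replicate 1, 170 and 161 without knockout replicate 2, 271 and 344 without control line 1 replicate 1, and 237 and 270 without control line 1 replicate 2. Of the 30 genes with the largest changes, 28 kept their call in all 6 fits that left out 1 library; Lyz2 and Slc16a3 did not. Just inside the threshold lay Rhobtb2 (larger adjusted p = 0.0497) and just outside it Dtymk (adjusted p = 0.0501).

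**Figure D1:**
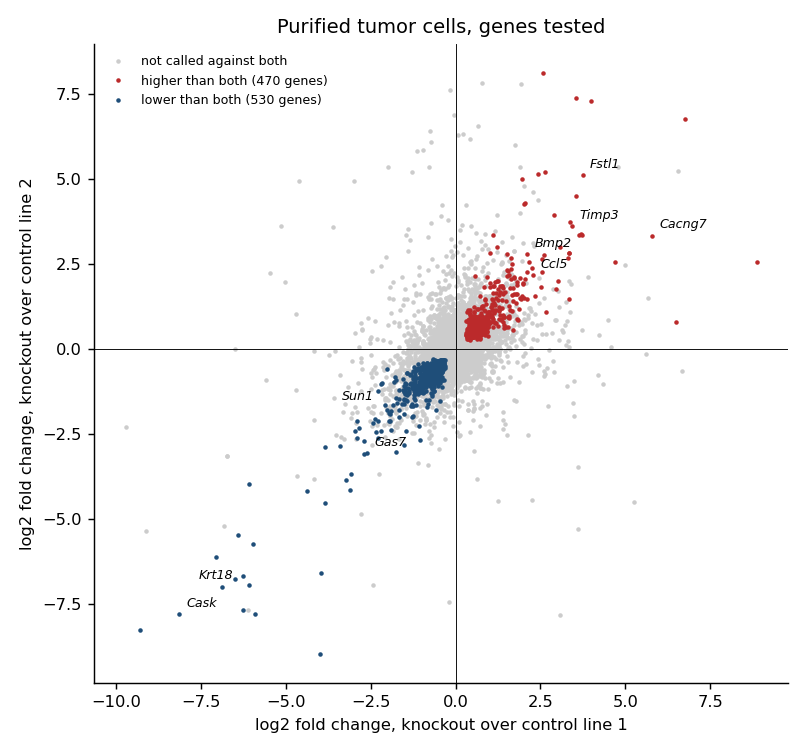
Log2 fold change of the knockout over control line 1 (horizontal) and over control line 2 (vertical) in purified cells, 1 point per tested gene. The 470 genes higher than both lines are red, the 530 lower than both are dark blue, and all others are grey; a wide cloud of grey points lies off the diagonal.

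The same rule was applied with each control line as the odd one out, as a measure of how far any line stands from the other two. Control line 1 differed from both other lines in 677 genes and control line 2 in 814 genes, beside 1000 genes for the knockout. Control line 2 against control line 1 gave 840 higher (6.73%) and 1124 lower genes (9.01%). Il13ra1, a subunit of the interleukin 13 receptor, was at 56.6 and 42.8 CPM in line 2, 0.727 and 2.38 CPM in line 1, and 0.0918 and 0.0968 CPM in the knockout. H2-T23, a non-classical MHC class I gene, was at 86.4 and 57.1 CPM in line 2, 3.33 and 3.49 CPM in line 1, and 20.5 and 24.6 CPM in the knockout, between both. Lum, a collagen-binding proteoglycan, was at 40.5 and 60.3 CPM in line 1 and at most 2.52 CPM in the other purified libraries. Mmp3, a stromelysin, was at 67.1 and 61.3 CPM in line 2, 3.39 and 2.7 CPM in line 1, and 34.1 and 33 CPM in the knockout.

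The type I interferon-stimulated genes formed the group with the most called members. Of 31 tested, 28 rose against both control lines (90.3%, beside 3.77% of all tested genes), 1 fell (Ifi27) and 2 did not pass, among them Isg20. The median log2 fold change was 1.37 against line 1 and 1.63 against line 2, and 30 of 31 lay above both lines, beside 34% of all tested genes. Leaving out 1 library gave 26 to 29 higher members. The summed level of the list was 7940 to 8380 TPM in the knockout, 2770 to 3200 TPM in line 1 and 2820 to 2840 TPM in line 2, so the groups did not overlap.

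Stat2, a subunit of the transcription factor that type I interferon activates, was at 422 and 454 CPM in the knockout, 131 and 137 CPM in line 1, and 150 and 133 CPM in line 2 (mean log2 fold change 1.67, SE 0.09, larger adjusted p = 6.29e-07). Ifit3, an antiviral tetratricopeptide protein, was at 153 and 162 CPM in the knockout and at 36.3 to 45.6 CPM in the 4 control libraries. Its neighbour Ifit3b was at 80.3 and 84.9 CPM in the knockout and at 18.3 to 21.8 CPM in the controls. These paralogs are alike in sequence, so the split of reads between them is uncertain. Irf7, a transcription factor that amplifies interferon production, was at 647 and 641 CPM in the knockout and at 144 to 205 CPM in the controls. The viral RNA sensors Ifih1 and Dhx58 rose by 1.09 and 1.49 on the log2 scale against line 1 and by 1.45 and 1.40 against line 2. In all of these genes each knockout library lay above every control library, as in all 470 higher called genes. Isg15, a ubiquitin-like modifier, was at 187 and 204 CPM in the knockout and at 62.8 to 85.7 CPM in the controls. Usp18, which removes that modifier and damps interferon signalling, was at 263 and 246 CPM in the knockout and at 61.6 to 98.4 CPM in the controls. Mx1, a GTPase that blocks viral replication, was at 27.1 and 34 CPM in the knockout, 12.9 and 8.68 CPM in line 1, and 4.74 and 7.34 CPM in line 2. The rise thus included effectors, sensors and a negative regulator, and Isg15, Usp18 and Mx1 kept their calls in all 6 leave-one-out fits. Oas2, which makes the activator of RNase L, was at 140 and 214 CPM in the knockout and at 45.6 to 101 CPM in the controls, and was not called without knockout replicate 2, control line 1 replicate 2 or either library of control line 2.

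Ifi27 went the other way. It encodes a small protein that type I interferon is known to raise. Its level was 32 and 28.8 CPM in the knockout, 105 and 128 CPM in line 1, and 135 and 127 CPM in line 2 (mean log2 fold change -2.01, SE 0.11, larger adjusted p = 6.29e-07). In culture the 3 lines were at 90.8, 110 and 94.2 CPM for the knockout, line 1 and line 2.

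**Figure D2:**
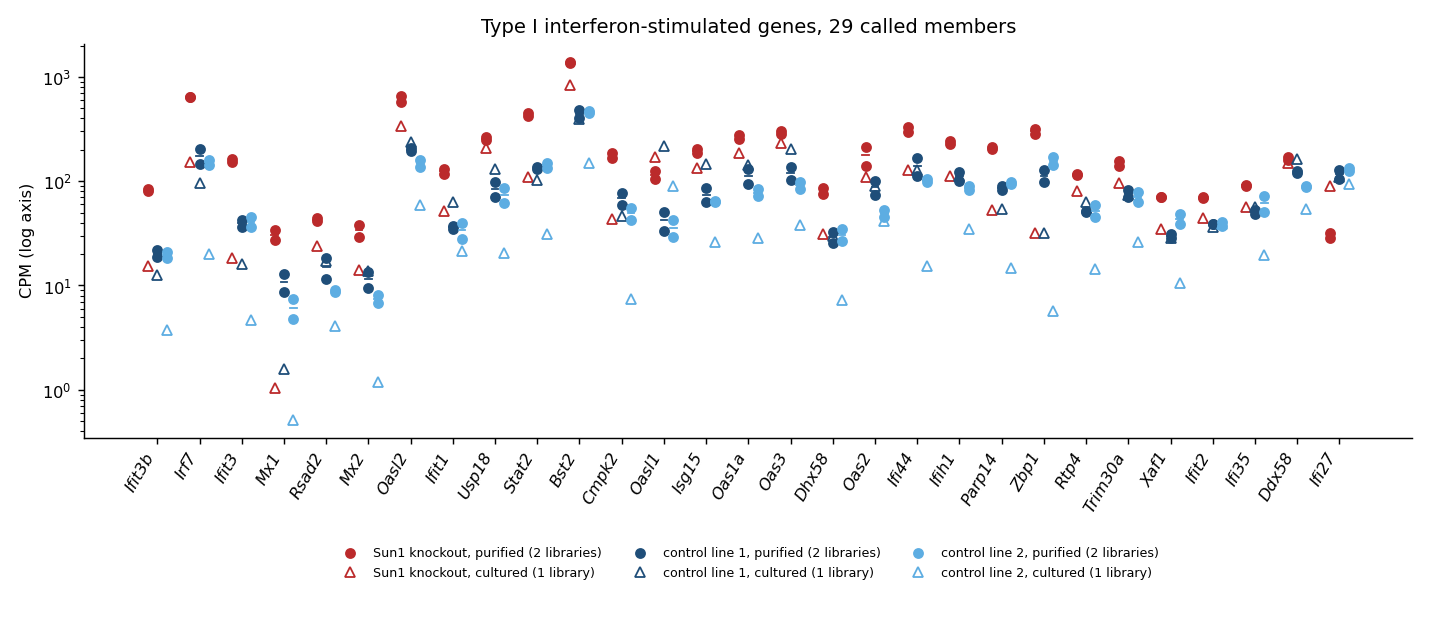
CPM of the 29 called type I interferon-stimulated genes on a log axis, ordered by fold change, with 1 filled circle per purified library, a short line at their mean, and 1 open triangle per cultured library. The purified knockout means stand above both control lines in all genes but Ifi27 at the right end, and the triangles of control line 2 are mostly the lowest.

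Promoters of these genes were searched for 2 copies of GAAA with any 2 bases between them, the core of the element that the complex of STAT2 and IRF9 binds (2 copies of TTTC on the other strand; matches may overlap), on both strands in the 250 bases before the start site of RefSeq genes (GRCm38.p6). It was present in 10 of the 21 list members with an entry (47.6%), in 321 of the 9382 tested genes with an entry (3.42%; 2.98% of all 32851 promoters), in 11.2% of the 348 higher called genes with an entry, and in 2.94% of the 408 lower ones. The overlapping interferon gamma list had it in 11 of 16 and the cholesterol list in 0 of 14. A match is a description of letters and not a measured binding site. The 4 promoters printed here belong to the called list members with the smallest p that hold the motif in a stretch wholly outside the annotated gene. The motif is in capitals, on the strand of the gene, and the last base is the one before the start site. They lie at chr10:128270248-128270497 (Stat2, plus strand), chr8:71537473-71537722 (Bst2, minus strand), chr19:34640639-34640888 (Ifit1, plus strand) and chr4:156200819-156201068 (Isg15, minus strand). Bst2 encodes tetherin, which holds budding virus at the cell surface, and rose by 1.66 and 1.58 on the log2 scale against lines 1 and 2. Ifit1, which binds foreign RNA caps, rose by 1.80 and 1.87.
Stat2: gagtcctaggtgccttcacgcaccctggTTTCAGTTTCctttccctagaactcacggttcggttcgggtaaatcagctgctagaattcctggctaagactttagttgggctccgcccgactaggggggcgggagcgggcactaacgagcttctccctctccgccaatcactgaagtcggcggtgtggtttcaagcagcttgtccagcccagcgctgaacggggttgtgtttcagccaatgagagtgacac
Bst2: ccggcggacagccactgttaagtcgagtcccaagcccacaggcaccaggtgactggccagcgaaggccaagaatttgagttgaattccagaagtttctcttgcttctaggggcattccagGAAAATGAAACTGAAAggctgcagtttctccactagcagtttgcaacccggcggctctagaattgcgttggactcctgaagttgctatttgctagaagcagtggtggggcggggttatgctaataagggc
Ifit1: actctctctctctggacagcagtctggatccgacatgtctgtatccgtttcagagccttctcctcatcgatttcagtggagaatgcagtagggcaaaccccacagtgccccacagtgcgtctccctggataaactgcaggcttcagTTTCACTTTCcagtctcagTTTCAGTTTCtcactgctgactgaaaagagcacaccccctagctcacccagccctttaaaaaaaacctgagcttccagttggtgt
Isg15: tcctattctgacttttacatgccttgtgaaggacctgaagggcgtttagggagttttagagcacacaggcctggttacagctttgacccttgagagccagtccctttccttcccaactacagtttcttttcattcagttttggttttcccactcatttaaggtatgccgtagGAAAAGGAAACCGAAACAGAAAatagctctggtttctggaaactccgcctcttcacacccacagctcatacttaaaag
In Stat2, the motif starts 222 bases before the start site. Bst2 has 2 overlapping matches, starting 130 and 124 bases before the start, Ifit1 has 2 separate ones at 104 and 85 bases, and Isg15 has 3 that overlap, the first starting 78 bases before the start.

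Interferon gamma-induced genes rose less evenly. Of 24 tested, 9 rose (37.5%, beside 3.77% of all tested genes) and 0 fell. The median log2 fold change was 1.27 against line 1 and 0.54 against line 2. The chemokine Cxcl10 was at 41.2 and 66.2 CPM in the knockout, 23.8 and 21.7 CPM in line 1, and 14 and 12.7 CPM in line 2. The guanylate-binding protein gene Gbp3 was at 428 and 482 CPM in the knockout and at 155 to 261 CPM in the controls (mean log2 fold change 1.18, SE 0.12, larger adjusted p = 0.000549). Both kept all knockout values above all control values, as did all 470 higher called genes. Gbp2 did not pass the test, with 382 and 510 CPM in the knockout and 506 and 363 CPM in line 2. Irf1, an interferon-induced transcription factor, also did not, with 147 and 194 CPM in the knockout and 197 and 178 CPM in line 2. The count fell from 9 to 4 without control line 2 replicate 1 and to 3 without control line 2 replicate 2.

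Antigen presentation followed with smaller changes. Of 23 tested MHC class I and peptide loading genes, 10 rose (43.5%, beside 3.77% of all tested genes) and 0 fell. Of the 23, 21 lay above both lines (91.3%, beside 34% of all tested genes). The median log2 fold change was 0.67 against line 1 and 0.38 against line 2. Nlrc5, the transactivator of MHC class I genes, was at 113 and 132 CPM in the knockout, 54.8 and 61.4 CPM in line 1, and 47.5 and 41.3 CPM in line 2 (mean log2 fold change 1.28, SE 0.10, larger adjusted p = 6.3e-05). H2-T22, a non-classical class I gene, was at 532 and 503 CPM in the knockout and at 243 to 302 CPM in the controls. Class I genes are near copies of each other, so their separate counts are uncertain. B2m, the common light chain, rose by 0.59 and 0.38 on the log2 scale (larger adjusted p = 0.0388), a call that was kept only when control line 2 replicate 1 was the library left out, while the peptide transporter gene Tap1 differed by 0.86 and 0.40 and missed the threshold (adjusted p = 0.0639). Cd274, which encodes PD-L1, was at 56 and 66.3 CPM in the knockout, 12.9 and 21.5 CPM in line 1, and 31.9 and 35.4 CPM in line 2. Its call was lost without knockout replicate 2 or either library of control line 2. The count of 10 was 6 without knockout replicate 1, 3 without knockout replicate 2, 6 without control line 1 replicate 1 and 6 without control line 2 replicate 2.

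Of 17 genes of cytosolic nucleic acid sensing, 5 rose (29.4%, beside 3.77% of all tested genes) and 1 fell (5.88%, beside 4.25%). Tlr3, the endosomal receptor for double-stranded RNA, was at 95.4 and 94.5 CPM in the knockout, 44.9 and 41 CPM in line 1, and 24.1 and 24.6 CPM in line 2. Eif2ak2, the kinase PKR, rose by 0.95 and 1.09 on the log2 scale, and Adar, which edits double-stranded RNA, by 0.78 and 0.95. Aim2, the sensor of cytosolic DNA, was at 27.9 and 26.6 CPM in the knockout and at 46.6 to 60 CPM in the controls (larger adjusted p = 0.000455). Genes upstream in the same pathways did not pass: Mb21d1 (cGAS) differed by 0.33 and 0.47, Tmem173 (STING) by 0.49 and 0.21, Mavs by 0.18 and -0.09, and Irf3 by -0.12 and -0.01.

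Culture gave a different spacing of the lines for the interferon genes. Of the 28 higher members, all 28 were above control line 2 in the cultured knockout, 25 of them at least 2-fold, with a median log2 difference of 2.05. Against control line 1 the median was 0.15, 20 of 28 were above it and 1 was at least 2-fold above. Stat2 was at 111 CPM in the cultured knockout, 103 CPM in line 1 and 31.1 CPM in line 2. Irf7 was at 154, 96.9 and 20 CPM in the same order. In culture, control line 2 was thus the low line, whereas after growth in mice the summed levels of both controls lay close together and below the knockout. By summed level the cultured knockout was also the highest, at 4570 TPM beside 3180 TPM in line 1 and 1130 TPM in line 2. Over the mean of the control lines, the effects in purified cells and in culture differed by the test in 1 of the 28 higher members. This was so for 0.197% of all genes in that test. Shifts in opposite directions against the 2 lines can cancel in that mean, so the spacing of the single lines was not tested. Single members still differed between the purified control lines, 9 of 31 by the test, beside 15.7% of all genes. With 1 cultured library per line no spread is known for these values. Of all 470 higher genes, 69.6% lay above both controls in culture and 40 (8.51%) were at least 2-fold above, beside 35.7% and 1.51% of all tested genes. Of the 530 lower genes, 78.3% lay below both and 43 (8.11%) were at least 2-fold below, beside 32.7% and 1.34%.

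**Figure D3:**
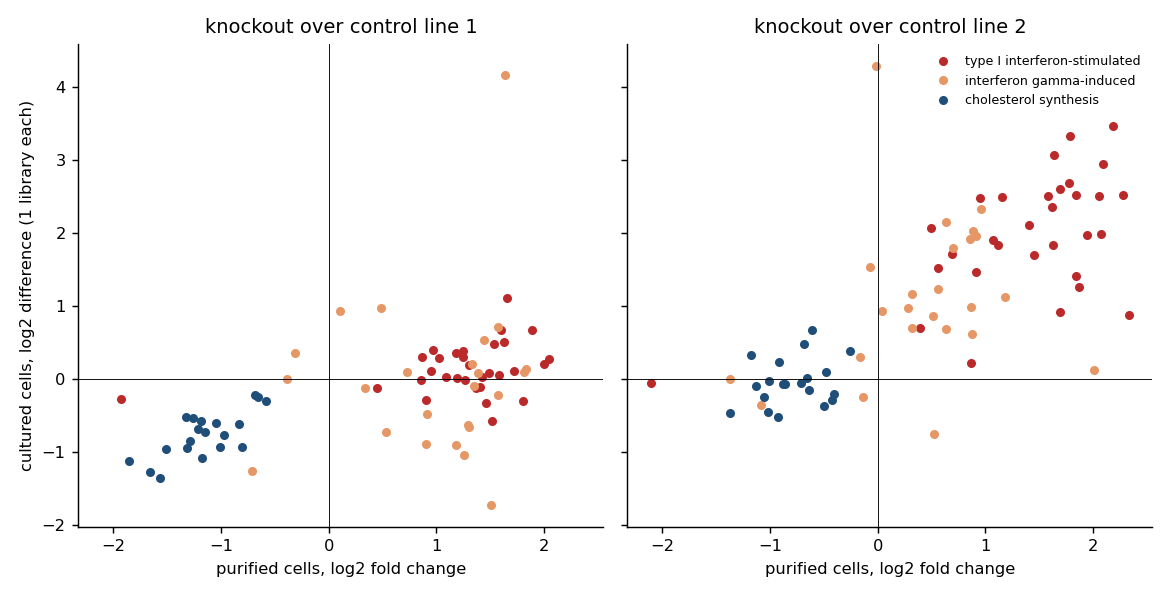
Log2 fold change in purified cells (horizontal) against the log2 difference in culture (vertical), over control line 1 at left and over control line 2 at right, 1 point per tested gene of 3 lists. Type I interferon-stimulated genes lie right of 0 in both panels except Ifi27, with the 28 higher members at a vertical median of 0.15 over line 1 and 2.05 over line 2, and cholesterol genes lie left of 0 in both panels.

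In whole tumors, where only control line 1 was grown beside the knockout, 25 of the 28 higher interferon-stimulated members were also called higher, with a median log2 fold change of 0.39. Irf7 was at 239 to 342 CPM (median 263) in knockout tumors and at 147 to 236 CPM (median 180) in control tumors, with no overlap. The summed level of the list did overlap, at 3750 to 6160 TPM in knockout tumors and 3310 to 4620 TPM in control tumors. Ifit3 overlapped too, at 113 to 218 CPM in knockout tumors and 69 to 128 CPM in control tumors. Whole tumors also held leukocytes, with the summed leukocyte markers at 2510 to 6110 TPM in knockout tumors and 1880 to 4650 TPM in control tumors. The part of leukocytes in these tumor values was not tested. Over all genes, 203 of 465 higher genes with a test in tumors (43.7%) were called higher there and 31 lower, beside 16.1% called higher among all genes tested in both settings. For the lower genes it was 336 of 524 (64.1%) and 18 opposite, beside 21.2%.

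The largest single rises included genes of several secreted proteins. Fstl1, a secreted glycoprotein that modulates BMP signalling, was at 69.9 and 70.8 CPM in the knockout, 5.88 and 4.71 CPM in line 1, and 2.53 and 1.57 CPM in line 2. Its log2 fold change was 3.75 and 5.11 (larger adjusted p = 4.56e-08). It was also highest in the cultured knockout, at 15.6 CPM beside 0.878 and 0.465 CPM. Bmp2, a ligand of the BMP family, was at 161 and 140 CPM in the knockout, 32.9 and 37.1 CPM in line 1, and 19.4 and 24.3 CPM in line 2. The cultured levels of Bmp2 were 51.3, 4.55 and 6.3 CPM. In whole tumors Bmp2 did not differ (log2 fold change -0.03, adjusted p = 0.866, edgeR quasi-likelihood test), while Fstl1 was higher (1.70, adjusted p = 7.69e-08, same test). Timp3, an inhibitor of metalloproteinases, was at 7.48 and 10.7 CPM in the knockout and at most 0.909 CPM in the controls. In cultured cells Timp3 was at most 0.394 CPM in any line, and in whole tumors it did not differ by the test (log2 fold change 0.13, adjusted p = 0.453). Dpt, a dermal matrix protein and a fibroblast marker, was at 12.7 and 19.6 CPM in the knockout and at 1.54 to 2.32 CPM in the controls. Of 14 fibroblast markers tested, Dpt was the 1 called (7.14% higher, beside 3.77% of all tested genes). The summed list was 1050 to 1070 TPM in the knockout, between 1610 to 1780 TPM in line 1 and 781 to 874 TPM in line 2. The part of fibroblasts in the Dpt result was not tested.

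Some strong rises were in genes with low levels in culture. Complement gene C4b was at 193 and 187 CPM in the purified knockout, 36.2 and 57.4 CPM in line 1, and 10.2 and 9.75 CPM in line 2, but at most 1.28 CPM in culture. Dio2, which activates thyroid hormone, was at 262 and 205 CPM in the knockout, 46.5 and 67.8 CPM in line 1, 13.4 and 10.6 CPM in line 2, and at most 2.37 CPM in culture. For both genes the difference between the effect in mice and in culture did not pass its test (adjusted p = 0.056 and 0.21). In whole tumors C4b did not differ (log2 fold change 0.23, adjusted p = 0.295, edgeR quasi-likelihood test), while Dio2 was higher (1.31, adjusted p = 0.000924, same test). The chemokine Ccl5 was at 14.4 and 15.1 CPM in the knockout and at 2.33 to 3.82 CPM in the controls. Cacng7, a regulatory subunit of membrane channels, was at 4.63 and 5.42 CPM in the knockout and at most 0.527 CPM in the controls. Cacng7 was also highest in the cultured knockout, at 3.7 CPM beside 0.0548 and 0.31 CPM. Sdsl, a serine dehydratase-like enzyme, was at 5.05 and 5.42 CPM in the knockout and at 0.739 to 1.33 CPM in the controls. The amino acid transporter Slc38a4 was at 6.15 and 6.29 CPM and at 0.847 to 2.12 CPM. Both of these showed the cultured knockout above both cultured controls, at 3.94 CPM for Sdsl and 11.2 CPM for Slc38a4. Tcp11x2, a testis gene on the X chromosome, was at 14.4 and 17.4 CPM in the knockout and at 3.05 to 5.37 CPM in the controls, and has close copies nearby, so its count is uncertain.

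**Figure D4:**
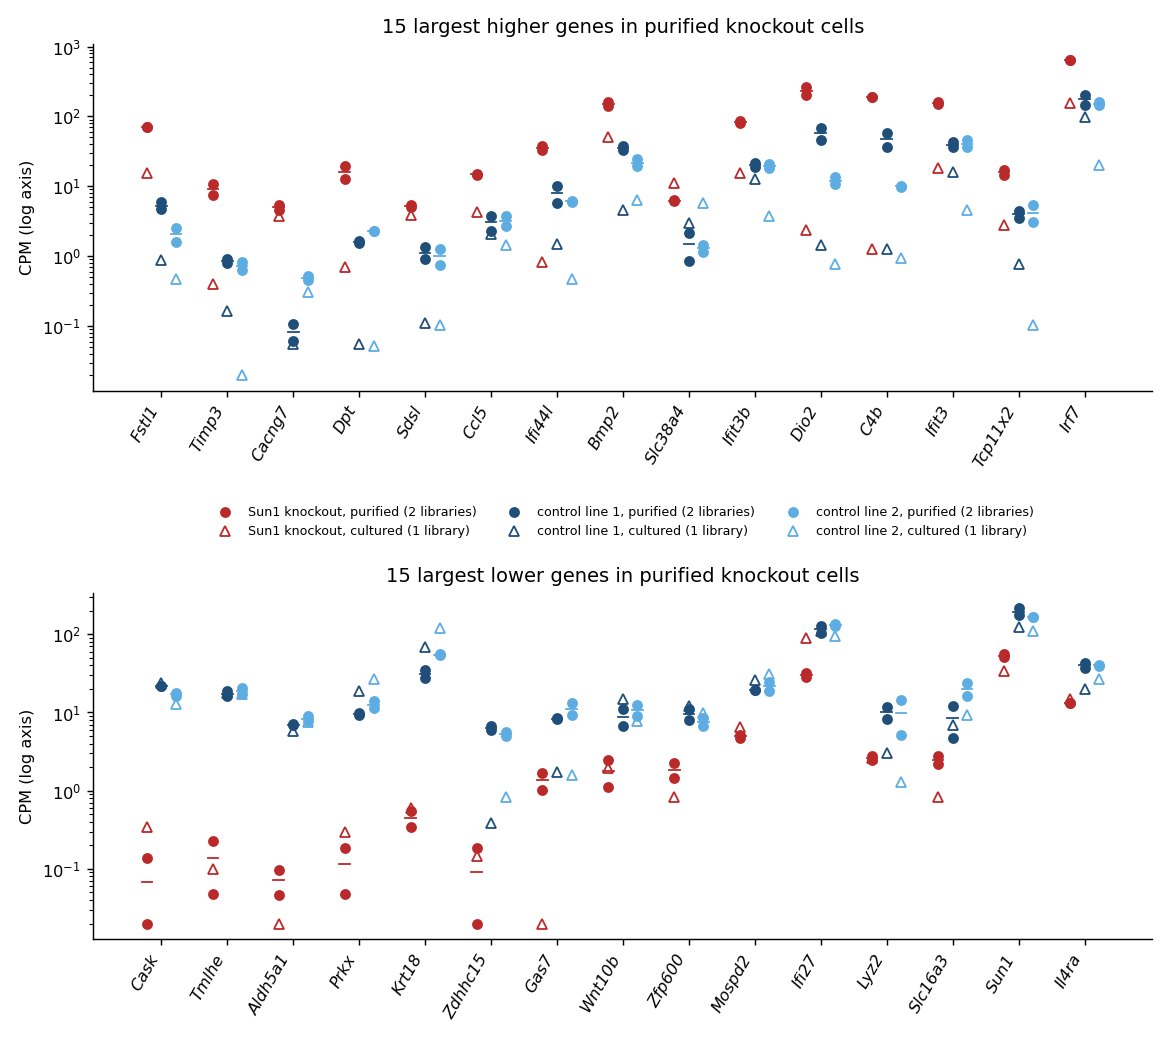
CPM of the 15 genes with the largest rise (top) and the 15 with the largest fall (bottom) on log axes, with 1 filled circle per purified library, a short line at their mean and 1 open triangle per cultured library; values under 0.02, including 0, are drawn at 0.02. In every gene both knockout circles lie outside the range of the 4 control circles, which was a condition for choosing these genes.

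Among the lower genes, several were almost silent in the knockout. Krt18, a keratin of simple epithelia, was at 0.551 and 0.339 CPM in the knockout, 34.7 and 27.8 CPM in line 1, and 53.8 and 56 CPM in line 2 (mean log2 fold change -6.51, SE 0.22, larger adjusted p = 1.24e-08). It was at 0.592 CPM in the cultured knockout beside 69.5 and 119 CPM. In tumors it was at 0.0503 to 0.496 CPM (median 0.266) in the knockout and at 7.79 to 12.8 CPM (median 10.7) in the control. Its usual partner Krt8 was at most 1.88 CPM in any purified library. Cask, a membrane scaffold kinase, had 3 counts in both knockout libraries together, beside 777 in line 1 and 687 in line 2. The ratio was 304 against line 1 (95% exact binomial interval 104 to 1480) and 231 against line 2 (78.7 to 1120), intervals that cover counting error only. Aldh5a1, which degrades the GABA metabolite succinic semialdehyde, also had 3 counts, beside 248 and 337, and ratios of 96.9 (32.8 to 473) and 113 (38.4 to 552). Tmlhe, the first enzyme of carnitine synthesis, was at 0.229 and 0.0484 CPM in the knockout and at 16.1 to 20.3 CPM in the controls. Prkx, a cyclic AMP-dependent kinase, was at 0.184 and 0.0484 CPM and at 9.32 to 13.9 CPM. The palmitoyltransferase Zdhhc15 was at 0.184 and 0 CPM and at 4.94 to 6.78 CPM. Cask, Tmlhe, Aldh5a1 and Prkx were also at 0 to 0.345 CPM in the cultured knockout.

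Lower genes of moderate size included receptors and ligands. Il4ra, the interleukin 4 receptor chain, was at 13.1 and 13.2 CPM in the knockout and at 36.7 to 43 CPM in the controls. Wnt10b, a Wnt ligand, was at 1.1 and 2.47 CPM and at 6.67 to 12.6 CPM. Areg, a ligand of the EGF receptor, was at 4.18 and 4.26 CPM and at 8.68 to 13.1 CPM. Mmp9, a gelatinase, was at 9.32 and 15 CPM and at 33 to 43.6 CPM, and was near 0 in culture in every line. Gas7, a cytoskeletal adaptor, was at 1.01 and 1.69 CPM and at 8.18 to 13.1 CPM. The inflammatory chemokine Ccl9 was at 5.32 and 6.58 CPM in the knockout, 14.7 and 19.5 CPM in line 1, and 51.7 and 32.9 CPM in line 2. In each of these 6 genes both knockout values lay below all controls, as in all 530 lower called genes. In whole tumors Il4ra and Mmp9 did not differ (log2 fold change 0.02 and -0.16, adjusted p = 0.92 and 0.738, edgeR quasi-likelihood test). Wnt10b and Gas7 were lower there (-0.84 and -1.05, adjusted p = 0.000222 and 0.000109, same test). The lactate transporter Slc16a3 was at 2.75 and 2.18 CPM in the knockout, 4.67 and 12.2 CPM in line 1, and 16.2 and 23.7 CPM in line 2. Its call was kept only when control line 1 replicate 1 was the library left out. Lyz2, a macrophage lysozyme, was at 2.48 and 2.76 CPM in the knockout and at 5.13 to 14.5 CPM in the controls, and its call was lost without either knockout library, control line 1 replicate 2 or control line 2 replicate 1.

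The lower genes were unevenly placed on the chromosomes. On the X chromosome 78 of 362 tested genes were called lower (21.5%) and 8 higher, beside 4.25% and 3.77% over all genes. In windows of 25 Mb, 51 of 72 genes were lower in the first window (70.8%), 21 of 36 in the second (58.3%), and 6 of 254 (2.36%) beyond 50 Mb. Within the first 50 Mb the median log2 fold change was -0.93 against line 1 and -0.94 against line 2, with 0.03 between the control lines. The middle range of the changes there was -1.18 to -0.63. Beyond 50 Mb the medians were 0.06 and -0.01. The cultured knockout showed the same part of the chromosome lower, with medians of -0.80 and -0.86, and 90 of 108 genes below both controls, beside 32.6% of all placed genes. In whole tumors 73 of 104 genes tested there were called lower and 8 higher. Among all genes tested in purified cells and in tumors, 21.2% were called lower in tumors and 16.1% higher. The boundary was chosen after the values were seen and is given as a description. The count of 72 was 57 to 71 with 1 library left out.

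Genes of that stretch carried known functions of several kinds. Suv39h1, a histone H3 lysine 9 methyltransferase, was at 39.5 and 41.8 CPM in the knockout, 98.8 and 86.8 CPM in line 1, and 92.4 and 94.6 CPM in line 2 (mean log2 fold change -1.19, SE 0.10, larger adjusted p = 2.04e-05). Timp1, a metalloproteinase inhibitor, was at 160 and 136 CPM, 241 and 237 CPM, and 366 and 407 CPM in the same order. Kdm6a, a histone H3 lysine 27 demethylase, was at 18 and 16 CPM in the knockout and at 24.7 to 36.5 CPM in the controls, but it was no longer called when either knockout library or control line 2 replicate 1 was left out. Ndufa1, a subunit of respiratory complex I, was at 13.3 and 15 CPM in the knockout and at 22.1 to 26.6 CPM in the controls. It was the 1 gene called among 27 nuclear oxidative phosphorylation genes (3.7% lower, beside 4.25% of all tested genes). Leaving out knockout replicate 1, or control line 1 replicate 2, ended the call of Ndufa1. Cask and Glod5 also lie in this stretch, whereas Prkx, Zdhhc15 and Mospd2 lie beyond it. Tmlhe is counted in the stretch by a listed start of 0.16 Mb, and Vamp7, also called lower, by a start before that. Whether these listed starts are positions on the placed chromosome or on an unplaced piece of it was not checked. Both genes are in the counts given for the stretch.

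Taken whole, other chromosomes were less extreme. Chromosome 15 had 10.6% of its genes lower, chromosome 3 8.4% lower, and chromosome 4 7.28% lower against 0.809% higher. Chromosome 8 had 6.53% higher against 0.303% lower, and chromosome 7 had 7.12% higher. Single windows of 25 Mb stood out more. On chromosome 3, 9 of 21 genes were lower at 150 to 175 Mb (42.9%). On chromosome 15, 50 of 281 were lower at 75 to 100 Mb (17.8%). On chromosome 7, 41 of 262 were higher at 25 to 50 Mb (15.6%). These windows were picked after the values were seen. For chromosomes 4 and 8 the medians differed by control line: chromosome 4 was -0.331 against line 1 and -0.039 against line 2, and chromosome 8 was 0.041 and 0.313. Culture gave -0.284 and -0.028 for chromosome 4, and 0.071 and 0.33 for chromosome 8. DNA was not measured, so copy number and transcription cannot be told apart.

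**Figure D5:**
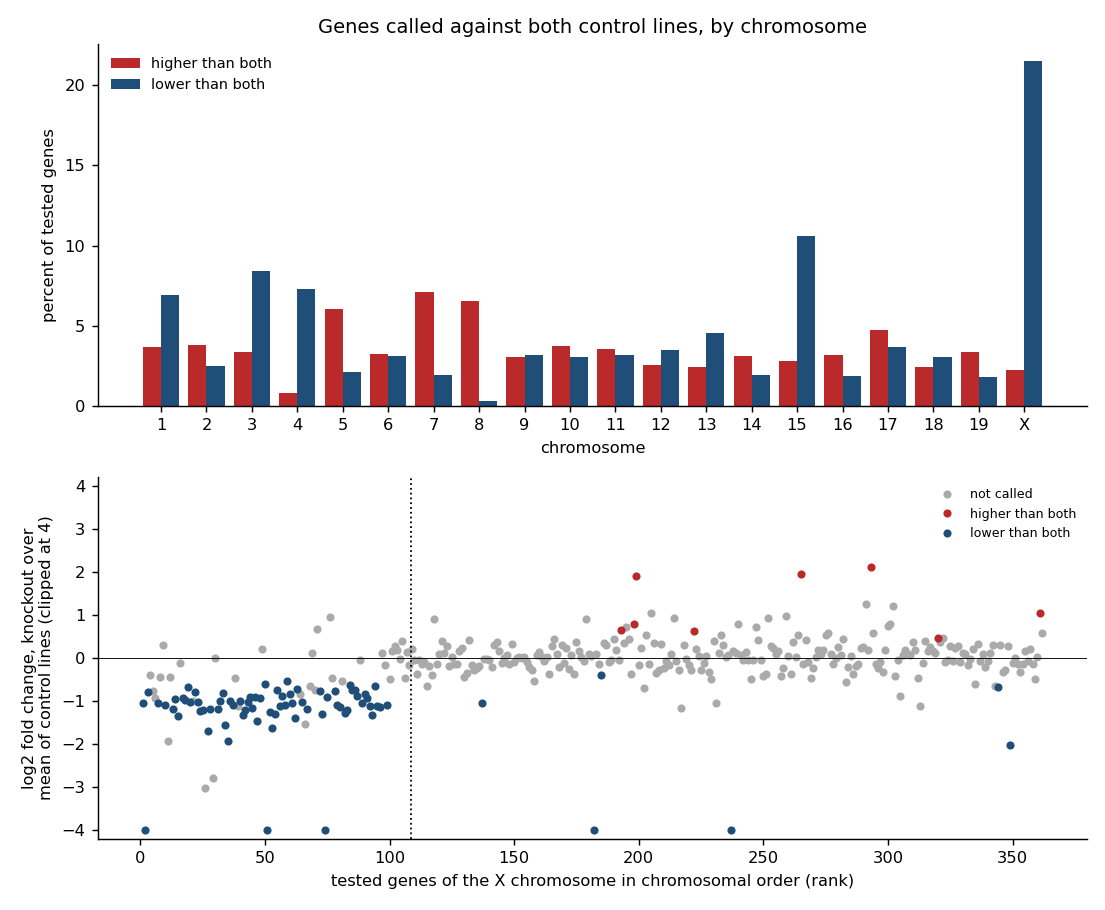
Top, percent of tested genes per chromosome called higher (red) or lower (blue) than both control lines. Bottom, log2 fold change of the knockout over the mean of the control lines for the 362 tested X chromosome genes in chromosomal order, clipped at 4 in either direction; the dotted line marks 50 Mb, before which 72 of 108 genes are lower.

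Cholesterol synthesis genes were lower in the knockout. All 20 tested members lay below both control lines, beside 34.9% of all tested genes. Of the 20, 8 passed the test (40%, beside 4.25% of all tested genes), among them Srebf2, Pmvk, Lss, Nsdhl, Sc5d and Stard4. The median log2 fold change of the list was -1.18 against line 1 and -0.78 against line 2. Srebf2, the transcription factor that drives the pathway, was at 168 and 115 CPM in the knockout, 339 and 373 CPM in line 1, and 268 and 306 CPM in line 2 (mean log2 fold change -1.17, SE 0.14, larger adjusted p = 0.00158). Lss, lanosterol synthase, was at 43.2 and 26.7 CPM in the knockout and at 62.5 to 82.6 CPM in the controls. Sqle, squalene epoxidase, was at 127 and 74.7 CPM and at 178 to 252 CPM, and missed the threshold (larger adjusted p = 0.0563). Knockout replicate 2, the library with the muscle RNA, was the lower of the pair in all of these, and the part of muscle RNA in the result was not tested. The count of 8 was 19 without knockout replicate 1, 3 without knockout replicate 2, 5 without control line 1 replicate 2, 3 without control line 2 replicate 1 and 5 without control line 2 replicate 2. Srebf2 kept its call in all 6 of these fits, and the other 7 lost theirs without knockout replicate 2. Nsdhl is also an X chromosome gene. In culture the 8 called members were all below line 1 (median log2 difference -0.67) and 6 of 8 below line 2 (median -0.07). In whole tumors 7 of the 8 were called lower against control line 1. The share called lower there was 21.2% of all genes tested in both settings, and 64.1% of the lower called genes. Of 22 fatty acid and lipid genes, 4 fell (18.2%, beside 4.25% of all tested genes) and 1 rose (4.55%, beside 3.77%). Plin2, which coats lipid droplets, fell by 0.67 and 0.79 on the log2 scale and kept its call in all 6 leave-one-out fits.

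The cell cycle genes that were called changed by small amounts, except Ccne1. Of 26 G2 and M phase genes, 4 fell (Ccnb2, Cdc20, Bub1b and Nusap1) and 0 rose, by 0.33 to 0.49 on the log2 scale, and 0 were called when either knockout library was left out. The share lower was 15.4%, beside 4.25% of all tested genes, and 11 of 26 lay below both control lines (42.3%, beside 34.9%). Of 25 S phase genes, Ccne1 rose and Pola1, Mcm3 and Mcm6 fell (12% lower), and 17 lay below both control lines (68%). Ccne1, cyclin E1, was at 46.6 and 47.2 CPM in the knockout and at 19.9 to 31.1 CPM in the controls (mean log2 fold change 0.97, SE 0.12, larger adjusted p = 0.0021). The 3 lower S phase members lost their calls when either knockout library was left out. Of 21 DNA damage response genes, 3 fell (14.3%) and 0 rose, and 13 lay below both control lines (61.9%, beside 34.9% of all tested genes). Among them were Xrcc5 and Xrcc6, which encode the Ku subunits that bind broken DNA ends. Xrcc6 was at 32.1 and 37.3 CPM in the knockout, 48.5 and 43.7 CPM in line 1, and 61.9 and 66.8 CPM in line 2. Xrcc5 and Xrcc6 lost their calls when either knockout library or control line 1 replicate 1 was left out, and Xrcc6 also without control line 1 replicate 2. Of 23 p53 target genes, Bax and Aen rose (8.7%, beside 3.77% of all tested genes). Their rises were 0.48 and 0.68 on the log2 scale over the mean of the control lines. Bax was not called without knockout replicate 2 or control line 1 replicate 2, and Aen not without either knockout library or control line 2 replicate 1.

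Other lists held few called genes. Of 19 hypoxia genes, 14 integrin and focal adhesion genes, 16 mesenchymal genes and 9 genes of a Wnt list that does not hold the called Wnt10b, 0 were called in each; at an unadjusted p under 0.05 these lists held 0, 1, 2 and 3 genes, and DESeq2 called 1, in the mesenchymal list. Of 16 collagens, Col4a1, Col7a1 and Col12a1 rose (18.8%, beside 3.77% of all tested genes). All of these collagen calls were lost when either knockout library was left out. Of 21 TGF-beta and BMP genes, Bmp2, Inhba and Id1 rose (14.3%, beside 3.77% of all tested genes) and Smad3 fell (4.76%, beside 4.25%). The calls of Id1 and Smad3 were lost without either knockout library or either library of control line 1, that of Smad3 also without control line 2 replicate 2. Inhba, which encodes the activin A subunit, was at 51.3 and 48.8 CPM in the knockout and at 27.2 to 30.8 CPM in the controls. In whole tumors Inhba went the other way, at a mean of 52.5 CPM in the knockout and 68 CPM in the control. Its log2 fold change there was -0.36 (adjusted p = 0.0126, edgeR quasi-likelihood test). Of the 3 higher TGF-beta and BMP genes, 1 was called higher in whole tumors and 1 lower. Among 24 immediate early and heat shock genes, which respond to tissue dissociation, 4 rose (16.7%, beside 3.77% of all tested genes): Zfp36, Nr4a1, Hsph1 and Dnajb1. Of the 24, 13 lay above both control lines (54.2%, beside 34%). Zfp36, an mRNA-destabilising protein, kept its call in all 6 leave-one-out fits. Nr4a1 kept its call only without control line 2 replicate 2. Hsph1 lost its call without control line 1 replicate 2 or either library of control line 2, and Dnajb1 without knockout replicate 2 or either library of control line 2. The chaperone gene Hsph1 was at 229 and 384 CPM in the knockout, higher in replicate 2, and at 132 to 155 CPM in the controls. The part of dissociation in these results was not tested.

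The knockout effect in purified cells was also compared with that in culture, over the mean of the control lines. It differed in 14 genes upward (0.106% of 13195) and in 12 downward (0.0909%), or 0.197% in either direction, and 1493 genes had an unadjusted p under 0.05. Among them were Id1 and Id3, targets of BMP signalling. Id1 was at 26.4 CPM in the cultured knockout beside 58.1 and 85.7 CPM, and at 13.3 and 12 CPM in the purified knockout beside 6.79 and 8.47 CPM in line 1 and 5.53 and 5.45 CPM in line 2. The knockout was thus the lowest line in culture and the highest after growth in mice, and the difference of effects was 2.41 on the log2 scale (SE 0.22, adjusted p = 0.000325, edgeR quasi-likelihood test). Znfx1, an RNA helicase of the antiviral response, was at 140 and 148 CPM in the purified knockout and at 70.7 to 79.8 CPM in the controls, but at 44.5 CPM in the cultured knockout beside 81 and 38.9 CPM. Ifi27 had a difference of -1.83 (SE 0.17, adjusted p = 0.000325). Mmp13, a collagenase, was at 49 CPM in the cultured knockout beside 3.35 and 6.3 CPM, and at 14 and 8.08 CPM in the purified knockout, where the controls reached 9.65 CPM. These tests assume that the single cultured libraries vary as the purified ones do.

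The authors' deposited table for purified cells is named as control against knockout. Of the 16158 genes in the authors' deposited table, 618 were lower and 676 higher in the control at an adjusted p under 0.05. By the authors' deposited table, 429 higher and 496 lower genes of those called here passed in the same direction. The authors' deposited table gives a log2 fold change of control over knockout of 1.64 for Sun1 and 6.67 for Krt18.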

How the data were processed

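The measurements are RNA sequencing of 24 libraries, mRNA-enriched and read on an Illumina HiSeq, per the labels' protocols. Per the submitters' processing notes the tools were FastQC, STAR, RSEM and DESeq2 with the mm10 build; versions are not given in the sources used here. The authors deposited, per library, the expected count of each gene (RSEM's estimate, not scaled between libraries) and TPM, per the file headers. The authors' deposited comparison table holds a log2 fold change and an adjusted p-value; the sign of Sun1 makes it control over knockout. No per-sample columns were left unmapped (0).

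Expected counts were rounded. The 6 purified libraries were fitted as 3 groups in edgeR 4.0.16 under R 4.3.3. Settings were TMM normalization, filterByExpr with a minimum count of 10 and total of 15, robust quasi-likelihood F tests, two-sided, and Benjamini-Hochberg adjustment over 12476 genes, with 3 residual degrees of freedom; standard errors were obtained by dividing each log2 fold change by the root of its F. A call needed an adjusted p under 0.05 against each control line in 1 direction, so the p given is the larger of both. The effect in purified cells minus that in culture was fitted on 9 libraries and the tumors on 15. Printed CPM uses TMM over all 24 libraries. Replicate numbers did not pair the purified libraries (correlation of deviations -0.038, 0.117 and -0.137). Libraries of 1 line differed by a chi-square of 12.9 to 21.1 per gene, far above repeated counting of 1 library.

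Named genes were Sun1, the 15 largest changes per direction (by the smaller of both fold changes, at least 5 CPM, no overlap, no predicted genes), up to 4 called members of each list with the smallest p, or 2 abundant members where none was called, and 5 genes per direction for the difference from culture and for the control lines. Some list members are counted but not reported here by name. Further list members described were chosen after their values were seen. The members and lists were chosen with earlier results of these data known. Alternatives were other size factors, no filter, DESeq2 1.42.0, no robust estimate, a replicate block, 1 control arm, a fit with the cultured libraries, stricter thresholds and leaving out each library. On simulated counts for 12284 genes, 47.8% of 67 genes changed 1.5-fold, 83.6% of 67 changed 2-fold and 100% of 66 changed 4-fold were called against both lines, and 3 of 157 calls were unchanged genes. The simulated control lines did not differ from each other, and changes were set only in well-counted genes. The real control lines differed in 15.7% of tested genes, so these rates cannot be carried over to the data. Gene positions and promoters are from RefSeq, GRCm38.p6.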

Additional observations from a re-analysis of the deposited data

Results flagged for a closer look

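The effect of the knockout in purified cells differed from that in culture, by the interaction test, in 10 genes named for that comparison. The difference on the log2 scale was 2.41 for Id1, 1.33 for Znfx1, 2.30 for Id3, 1.14 for Xdh and 3.26 for Serpinb8, and -1.83 for Ifi27, -3.74 for Glod5, -1.42 for Chrnb1, -1.96 for Rerg and -2.69 for Mmp13, with adjusted p (edgeR quasi-likelihood test) from 0.000325 to 0.0101. Without knockout replicate 1 the adjusted p was 0.0526 for Id3, 0.0594 for Xdh and 0.0564 for Serpinb8. Without knockout replicate 2 it was 0.0747, 0.095 and 0.0607 for these genes, 0.0685 for Chrnb1 and 0.0549 for Rerg. Of the genes described for other reasons, Cxcl10 (2.11, adjusted p = 0.0257), Zfp36 (1.24, adjusted p = 0.0321) and Ifit1 (1.37, adjusted p = 0.0287) also passed. Cxcl10 had an adjusted p of 0.0518 to 0.0919 without control line 1 replicate 2 or either library of control line 2. Zfp36 had one of 0.0573 to 0.247 without either knockout library or either library of control line 1. Each difference rests on a single cultured library per line.

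For the 30 genes with the largest changes, 60 groups of whole tumors were searched for 1 library far from the others, and 7 held one, where chance gives about 1 in 20. Among knockout tumors the highest library was at 17.5 CPM for Ccl5, 8.74 CPM for Slc38a4, 79.9 CPM for Ifit3b and 218 CPM for Ifit3, and the lowest was at 0.372 CPM for Tmlhe and 22.8 CPM for Slc16a3. Among control tumors the highest was at 236 CPM for Irf7.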

How the results depend on the processing

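Of 111 named called genes, 110 kept their call with other size factors, 111 with no filter, 104 in DESeq2, 106 without robust estimates and 60 to 90 with 1 library left out; 0 reversed. The 470 higher and 530 lower genes became 282 and 286 with the controls as 1 arm, 117 and 123 at 2-fold, and 192 and 230 at an adjusted p under 0.01; with no filter they were 619 and 620, with the cultured libraries in the fit 465 and 517, and in DESeq2 452 and 486. For the difference from culture, 14 and 12 became 144 and 162 with no filter, 47 and 26 in DESeq2, and 9 and 6 without robust estimates; the causes were not tested. Leaving out 1 library gave 170 to 537 higher and 161 to 601 lower genes against both lines, 343 to 1311 and 381 to 1541 against line 1, 581 to 1504 and 392 to 1439 against line 2, 404 to 1643 and 307 to 1533 against their mean, 290 to 1001 and 501 to 1214 between control lines, 253 to 743 for line 1 and 361 to 1128 for line 2 as the odd line, 5 to 77 and 4 to 54 for the difference from culture, and 190 to 220 and 317 to 332 in tumors. Fits without 1 library leave an arm with a single library, assumed to vary like the others.

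With the replicate number as a block, 459 higher and 502 lower genes were called against both lines, 421 and 483 of them shared, and 102 of the 111 named genes kept their call. The numbers do not pair the libraries, so this is no paired test. Depth limits genes under about 10 counts.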
